A study of Homo sapiens with 6 samples.

Results

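The enzymes that carry glucose carbon from aldolase to pyruvate kinase were followed in HCT116 cells, a human colorectal carcinoma line, with and without METTL3. The 10 genes, out of 56638 gene rows in each count table, were chosen by symbol as the lower part of glycolysis. That rule uses no measured value, although earlier results of these data were known. The first genes of this part are ALDOA and ALDOC (aldolases), TPI1 (triosephosphate isomerase), GAPDH (glyceraldehyde-3-phosphate dehydrogenase) and PGK1 (phosphoglycerate kinase). After them come PGAM1 and BPGM (phosphoglycerate and bisphosphoglycerate mutases), ENO1 and ENO2 (enolases) and PKM (pyruvate kinase). WT stands for wild-type HCT116 cells and METTL3-KO for HCT116 cells in which the gene had been knocked out by CRISPR/Cas9. According to the study's methods, the knockout line was monoclonal, grown out after lentiCRISPR transduction and puromycin selection, so an effect of the knockout and a property of that clone cannot be told apart. The names of the count tables carry an abbreviation that can be read as an siRNA against METTL3, which the labels do not mention, so the samples are called here by their labels. The labels give passages 16-19 and the same culture medium for all samples, and mRNA was measured by RNA-seq in 3 samples of each group. The labels do not say whether these came from separate cultures, so the p-values set the group difference against a spread between samples that may be technical.

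Glycolysis splits fructose-1,6-bisphosphate at aldolase into triose phosphates, which GAPDH oxidises and PGK1, the mutases, the enolases and pyruvate kinase turn into pyruvate, with ATP made at PGK1 and at pyruvate kinase. Several steps have a broadly expressed form and a tissue form: ENO2 is the neuronal enolase and ALDOC the brain aldolase. BPGM, of the mutase family, is the enzyme that makes 2,3-bisphosphoglycerate, the modulator of haemoglobin in red cells. METTL3 is the catalytic subunit of the complex that writes N6-methyladenosine (m6A) on mRNA, and many genes of the pathway are textbook targets of HIF-1, the transcription factor of the hypoxia response.

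Windows before annotated start sites of these genes came from RefSeq (build GRCh38.p14), which held 13 such sites for the 10 genes. These sites were not compared with the gene positions given below, which are on GRCh37, so a window can lie inside a gene. In the 250 bases before each start, the core words of the HIF-1 binding site, ACGTG and GCGTG, were sought on both strands, and words that overlap counted as 1 stretch. ACGTG is also part of the E-box CACGTG, which MYC-family factors bind. At least 1 stretch lay in 10 of the 13 windows (76.9%), against 43.2% of all 35116 windows of that length and 55.9% of the 9931 windows of genes measured at or above the level of the least abundant enzyme here. Both words contain CpG, of which the 13 windows held a median of 27, against 21 in the windows of those expressed genes and 11 in all windows. The median number of stretches was 1 in the 13 windows and 1 in the windows of the expressed genes, and ALDOA alone gave 3 of the 13 windows. The 4 windows below are those of BPGM and ENO2, the genes with the largest differences between METTL3-KO and WT, and those of ALDOC and PGK1, which held the most stretches (4 and 3). BPGM lies on the plus strand at chr7:134646603-134646852, ENO2 on the plus strand at chr12:6914330-6914579, ALDOC on the minus strand at chr17:28576896-28577145 and PGK1 on the plus strand at chrX:78103998-78104247. Each is written 5′ to 3′ on the strand of its gene, and the capitals mark the core words or their reverse complements.
BPGM: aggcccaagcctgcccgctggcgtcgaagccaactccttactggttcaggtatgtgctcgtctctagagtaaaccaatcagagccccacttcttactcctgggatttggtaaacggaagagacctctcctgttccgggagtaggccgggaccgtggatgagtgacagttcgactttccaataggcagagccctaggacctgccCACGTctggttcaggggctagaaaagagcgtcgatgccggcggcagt
ENO2: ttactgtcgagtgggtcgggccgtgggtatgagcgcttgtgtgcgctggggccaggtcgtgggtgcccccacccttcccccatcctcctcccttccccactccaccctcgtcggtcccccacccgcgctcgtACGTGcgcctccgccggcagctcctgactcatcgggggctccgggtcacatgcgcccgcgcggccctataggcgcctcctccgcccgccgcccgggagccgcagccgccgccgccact
ALDOC: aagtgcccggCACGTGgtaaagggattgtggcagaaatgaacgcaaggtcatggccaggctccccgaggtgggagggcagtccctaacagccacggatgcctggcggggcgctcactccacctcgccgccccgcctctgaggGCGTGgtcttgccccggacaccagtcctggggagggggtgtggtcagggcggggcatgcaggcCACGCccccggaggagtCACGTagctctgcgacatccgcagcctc
PGK1: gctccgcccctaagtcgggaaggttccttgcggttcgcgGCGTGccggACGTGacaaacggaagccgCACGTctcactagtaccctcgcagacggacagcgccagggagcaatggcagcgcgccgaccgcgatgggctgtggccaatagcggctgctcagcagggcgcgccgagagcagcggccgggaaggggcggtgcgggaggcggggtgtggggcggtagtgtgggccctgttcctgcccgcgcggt
BPGM and ENO2 each held 1 stretch, while none was found in the window of PGAM1, of PKM or of the first of the TPI1 starts. The match of letters is a description of these windows and was not tested against binding. Stretches before other starts of these genes were not sought.

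METTL3 itself, the gene named by the labels, had 841, 682 and 623 counts in WT replicates 1 to 3, against 219, 169 and 162 in the METTL3-KO replicates. That is 30.0 ± 0.724 CPM (counts relative to the library size after edgeR's TMM scaling) against 7.28 ± 0.400 (SD, n = 3 each), a log2 fold change of -2.04 (SE 0.0906, edgeR adjusted p = 1.59e-07). Between 20936091 and 30142144 counts per sample fell on genes. Replicate 3 stood apart from replicates 1 and 2 in both groups: the chi-square per gene between samples was 2.44 for WT replicates 1 and 2 and 20.7 to 20.8 for either against replicate 3, and 2.23 against 7.61 to 10.1 in METTL3-KO. The share of read pairs outside any gene was 9.08% in WT replicate 3 (6.83% and 6.92% in the other WT samples) and 6.03% in METTL3-KO replicate 3 (7.09% and 7.10% in the other METTL3-KO samples). The deviations of the 2 replicate 3 samples from their group means ran in opposite directions across 10336 genes (r = -0.784, a description over genes that are not independent). Counts of called genes are therefore also given without them. The table of METTL3-KO replicate 3 also carries a sequencing index number apart from the other 5, which run in order, while the date and lane in the names are the same for all 6. The epithelial markers EPCAM, CDH1, KRT8, KRT18 and KRT19 were expressed in every sample, and KRT19 (log2 fold change 0.82), KRT8 (0.36) and CDH1 (0.23) were higher in METTL3-KO at an edgeR adjusted p of 0.000134, 0.0143 and 0.0396. Of 14 markers of immune, fibroblast, endothelial, red and neuronal cells, 0 of the 5 tested passed, PECAM1, COL1A2, HBA1 and HBA2 were at 0 in all samples, and the summed level was 7.27 to 8.80 CPM in WT and 8.49 to 10.8 in METTL3-KO. Without COL1A1 and SYP, chosen for removal after their values were seen, the other 12 summed to 0.146 to 0.310 and 0.318 to 0.553 CPM.

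All 10 enzymes passed the filter on low counts, and 6 of them fell in METTL3-KO (edgeR adjusted p under 0.05): BPGM, ENO2, PKM, ENO1, TPI1 and GAPDH. None rose. The METTL3-KO mean stood at 60.5% of the WT mean for BPGM and at 62.0% for ENO2, and at 83.1% for PKM, 84.7% for ENO1, 84.5% for TPI1 and 87.2% for GAPDH. ALDOC, PGAM1, ALDOA and PGK1 did not pass, and their estimates were also negative, although that of PGK1 was near 0 and took either sign under other settings. Of all 22452 genes tested, 13.2% were called lower and 13.3% higher by the same test. Among the 8940 genes with a mean at or above that of BPGM, the least abundant enzyme, 20.4% were called lower and 20.8% higher. The median log2 fold change was -0.24 over the 10 enzymes, against -0.02 over all tested genes, with quartiles of -0.36 and 0.32. Over the 8940 genes at or above the BPGM mean the median was -0.0013, with quartiles of -0.22 and 0.21. For 6 of the 10 the highest METTL3-KO sample was below the lowest WT sample, which held for 20.7% of all tested genes. Together the 10 genes took 0.947%, 0.933% and 0.887% of all gene counts in WT and 0.794%, 0.836% and 0.790% in METTL3-KO, a mean of 0.922 ± 0.0312% against 0.807 ± 0.0254% (SD, n = 3 each).

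**Figure D1:**
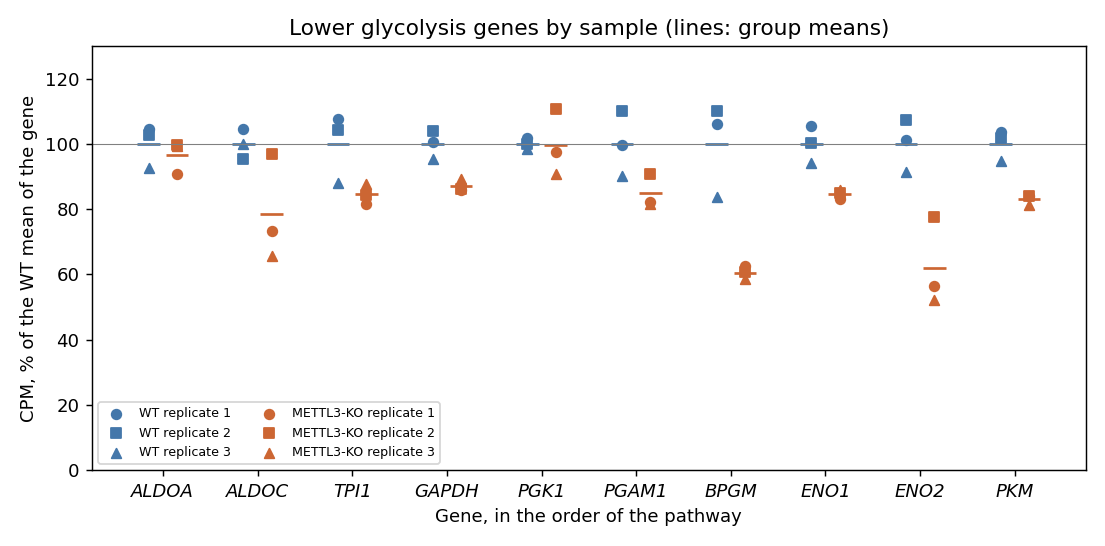
CPM of each enzyme gene in each of the 6 samples, as a percent of the gene's WT mean (y axis), with the genes in pathway order (x axis) and lines at the group means. The METTL3-KO points of BPGM lie between 58.6% and 62.5% of the WT mean, below every WT point, while the points of ALDOA and PGK1 overlap between groups.

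At the aldolase step, which makes the triose phosphates, neither gene passed the test. ALDOA, the ubiquitous aldolase on chromosome 16 (GRCh37, 30075485 to 30081778, plus strand), was measured at 1040, 1021 and 920 CPM in WT replicates 1 to 3 and at 902, 990 and 988 CPM in METTL3-KO. The groups overlapped, and the log2 fold change was -0.05 (SE 0.0733, 95% interval -0.21 to 0.11, edgeR adjusted p = 0.662). ALDOC (chromosome 17, 26900133 to 26903966, minus strand) was measured at 37.8, 34.4 and 36.1 CPM in WT and at 26.5, 35.0 and 23.7 in METTL3-KO. METTL3-KO replicate 2 reached the WT range while the other METTL3-KO samples lay below it, and the log2 fold change was -0.35 (SE 0.124, edgeR adjusted p = 0.0574). Without that sample the difference was -0.52 (edgeR adjusted p = 0.00564), and without WT replicate 3 it was -0.35 (edgeR adjusted p = 0.0269). It did not pass when any of the other 4 samples was left out (log2 fold changes of -0.38 to -0.24, edgeR adjusted p of 0.0794 to 0.192).

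TPI1 and GAPDH, the next enzymes, fell by similar amounts in the log2 fold change. TPI1, which interconverts the triose phosphates (chromosome 12, 6976283 to 6980112, plus strand), was measured at 585, 568 and 479 CPM in WT and at 444, 459 and 476 in METTL3-KO. All METTL3-KO samples lay below all WT samples, though WT replicate 3 and METTL3-KO replicate 3 were within a few CPM of each other. The log2 fold change was -0.24 (SE 0.0824, edgeR adjusted p = 0.0478). GAPDH, which makes NADH and is widely used as a reference gene (chromosome 12, 6643678 to 6647540, plus strand), was measured at 2325, 2405 and 2202 CPM in WT and at 1986, 1994 and 2064 CPM in METTL3-KO. Its groups were separate, with a log2 fold change of -0.20 (SE 0.0640, edgeR adjusted p = 0.0388). Both calls were close to the threshold. Each was lost when WT replicate 1 or 2 or any METTL3-KO replicate was left out (edgeR adjusted p of 0.0659 to 0.204), with log2 fold changes of -0.27 to -0.18 for TPI1 and -0.22 to -0.17 for GAPDH, and each stayed without WT replicate 3 (0.000170 for TPI1 and 0.00164 for GAPDH). With upper quartile scaling the adjusted p was 0.0678 for TPI1 and 0.0568 for GAPDH, and for TPI1 it was 0.0535 with RLE factors.

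PGK1, the first ATP-yielding step (chromosome X, 77166236 to 77384792, plus strand), was measured at 979, 961 and 945 CPM in WT and at 937, 1064 and 872 in METTL3-KO. The WT samples lay inside the METTL3-KO range, and the log2 fold change was -0.01 (SE 0.0786, 95% interval -0.18 to 0.17, edgeR adjusted p = 0.962). The 95% intervals of GAPDH (-0.34 to -0.06), TPI1 (-0.42 to -0.06), ENO1 (-0.38 to -0.09) and PKM (-0.41 to -0.13) overlapped this interval. Those of BPGM (-0.97 to -0.47) and ENO2 (-0.98 to -0.41) did not. Whether PGK1 differed from the enzymes called lower was not tested.

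Of the mutase family, BPGM passed the test and PGAM1 did not. BPGM (chromosome 7, 134331563 to 134364568, plus strand) had 529, 452 and 324 counts in WT and 342, 242 and 250 in METTL3-KO, or 19.3, 20.0 and 15.2 CPM against 11.3, 11.01 and 10.6 CPM. The METTL3-KO samples were close together and below every WT sample, and the log2 fold change was -0.72 (SE 0.114, edgeR adjusted p = 0.000614). It passed in all 16 alternative analyses, with log2 fold changes of -0.83 to -0.65. Its difference from WT and that of ENO2 were within their SEs of each other, and their order changed between alternatives. PGAM1, the main glycolytic mutase (chromosome 10, 99185948 to 99193201, plus strand), was measured at 74.99, 82.9 and 67.7 CPM in WT and at 61.9, 68.2 and 61.3 CPM in METTL3-KO. METTL3-KO replicate 2 lay just above WT replicate 3, and the log2 fold change of -0.24 (SE 0.0883, edgeR adjusted p = 0.0677) did not pass. It passed without WT replicate 3, the lowest WT sample (log2 fold change -0.30, edgeR adjusted p = 0.00339), and not when any of the other 5 samples was left out (-0.29 to -0.16, edgeR adjusted p of 0.0819 to 0.261).

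Both enolases, which make phosphoenolpyruvate, fell. ENO1, the ubiquitous form (chromosome 1, 8921059 to 8939249, minus strand), was measured at 1863, 1773 and 1665 CPM in WT and at 1471, 1503 and 1517 in METTL3-KO, with separate groups. Its log2 fold change was -0.24 (SE 0.0663, edgeR adjusted p = 0.0188), and the call was lost without WT replicate 1 or 2 or METTL3-KO replicate 1 or 2 (edgeR adjusted p of 0.0548 to 0.114). ENO2 (chromosome 12, 7022909 to 7032861, plus strand) had 1695, 1481 and 1187 counts in WT and 1038, 1040 and 748 in METTL3-KO, or 61.7, 65.5 and 55.7 CPM against 34.4, 47.3 and 31.8 CPM. METTL3-KO replicate 2 was the highest of its group and still below the lowest WT sample. The log2 fold change was -0.69 (SE 0.130, edgeR adjusted p = 0.00203), between -0.88 and -0.58 over the 16 alternatives, all of which called it.

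PKM, the last step (chromosome 15, 72491370 to 72524160, minus strand), was measured at 2543, 2499 and 2322 CPM in WT and at 2064, 2061 and 1991 CPM in METTL3-KO. The groups were separate, with a log2 fold change of -0.27 (SE 0.0645, edgeR adjusted p = 0.00897), and the call was lost when WT replicate 1 was left out (edgeR adjusted p = 0.0634). The counts are per gene, so the M1 and M2 splice forms of PKM were not told apart. The splicing factors that repress or favour its alternative exons were looked at as a list of 4: SRSF3, HNRNPA1 and HNRNPA2B1 fell (log2 fold changes of -0.46, -0.36 and -0.21, edgeR adjusted p of 0.000465, 0.00250 and 0.0290), and PTBP1 was not called.

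**Figure D2:**
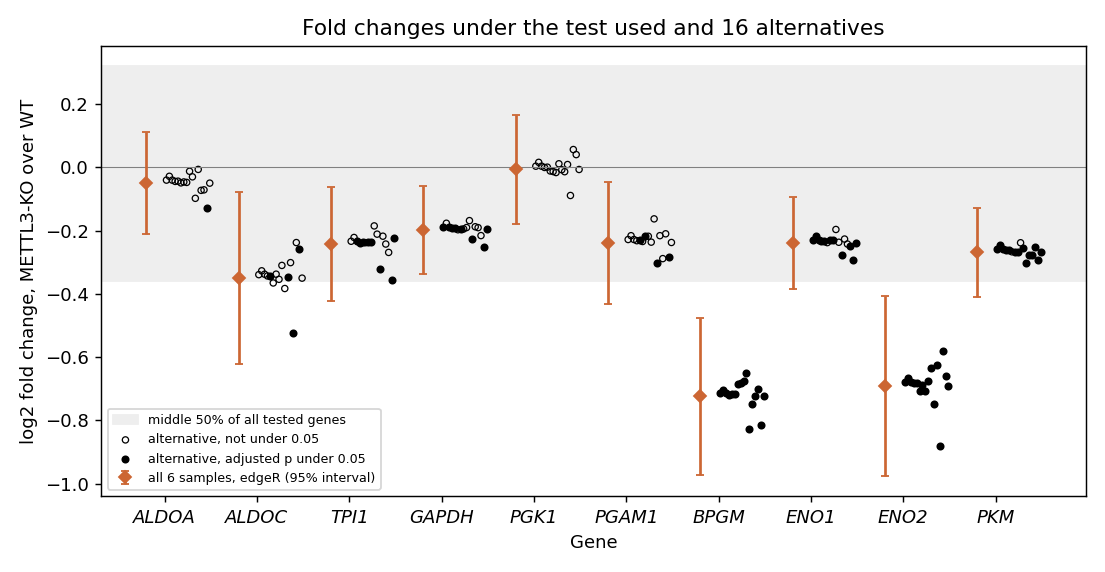
Log2 fold change of METTL3-KO over WT (y axis) for each enzyme gene (x axis): diamonds with 95% intervals from edgeR on all 6 samples, and small points from 16 alternative analyses, filled where the adjusted p was under 0.05. The points of BPGM and ENO2 are filled throughout and lie at or below -0.58, those of PGK1 are open and lie on both sides of 0, and the grey band runs between the quartiles of all tested genes (-0.36 and 0.32).

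The samples that set the spread differed between groups. WT replicate 3 was the lowest WT sample for 9 of the 10 genes, all but ALDOC. METTL3-KO replicate 2 was the highest METTL3-KO sample for ALDOA, ALDOC, PGK1, PGAM1 and ENO2. The coefficient of variation in METTL3-KO was 21.9% for ENO2 and 20.7% for ALDOC, where counting alone gives 3.26% and 3.76%, against 3.25% for BPGM, where counting alone gives 5.998%. In WT BPGM instead had the largest of these values, with 14.3%, where counting alone gives 4.79%, against 8.16% for ENO2 and 4.65% for ALDOC. With replicate 3 of both groups left out, 9 of the 10 genes were called lower, all but PGK1 (log2 fold change 0.04, edgeR adjusted p = 0.395), and 21.6% of all tested genes were called lower. ALDOA (log2 fold change -0.13, edgeR adjusted p = 0.00134) and ALDOC (log2 fold change -0.26, edgeR adjusted p = 0.00172) were among the 9. That fit rests on 2 samples a group, the pairs with the lowest chi-square per gene (2.44 in WT and 2.23 in METTL3-KO). The samples left out were those that stood apart, so its adjusted p is set against a spread that this choice made smaller. With WT replicate 3 alone left out 8 of the 10 were called lower, and with METTL3-KO replicate 3 alone left out 4 were. Over all 22452 tested genes, 3767 and 2571 were called lower in these fits, against 2959 with all 6 samples, so the calls of the whole table moved the same way.

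The share of ENO2, BPGM or ALDOC within its gene family does not depend on library size, and was taken from counts per kilobase of exon. The mutase family was taken as PGAM1, PGAM2, PGAM4 and BPGM. Its share is not one of forms of a single step, since BPGM makes 2,3-bisphosphoglycerate. ENO2 made up 3.85%, 4.27% and 3.88% of the enolase signal in WT and 2.75%, 3.66% and 2.47% in METTL3-KO, a fall from 4.001 ± 0.235% to 2.96 ± 0.622% (SD, n = 3 each). BPGM made up 18.8%, 18.1% and 16.8% of the mutase signal in WT and 14.2%, 12.8% and 13.6% in METTL3-KO, that is 17.9 ± 1.00% against 13.5 ± 0.684%. In both families the groups did not overlap, and the two-sided exact permutation p was 0.1 (0.15 adjusted over 3 tests), the smallest that 3 against 3 samples can give. ALDOC made up 5.05%, 4.71% and 5.44% of the aldolase signal in WT and 4.13%, 4.92% and 3.39% in METTL3-KO. Those groups overlapped (5.07 ± 0.365% against 4.15 ± 0.765%, exact permutation p = 0.2).

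**Figure D3:**
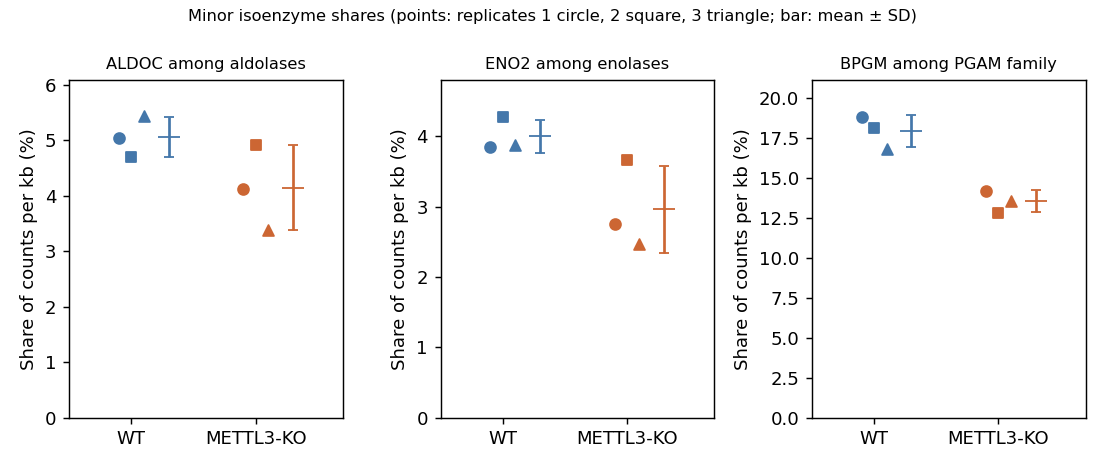
Share of ALDOC, ENO2 and BPGM within the aldolase, enolase and mutase gene families, in percent of counts per kilobase (y axes). Points are WT and METTL3-KO samples, with the mean and SD beside them. ENO2 and BPGM points of METTL3-KO lie below all WT points, and METTL3-KO replicate 2 of ALDOC lies among the WT points.

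The other steps were carried by 1 form. PKM, GAPDH and PGK1 each held at least 99.988% of their step in every sample. Among the isoenzymes outside the 10 genes, ENO3, the muscle enolase, fell from 10.2 ± 1.12 to 6.74 ± 1.13 CPM (SD, n = 3 each; log2 fold change -0.60, edgeR adjusted p = 0.00723), so ENO3 was called lower along with ENO1 and ENO2. ENO3 made up 0.664 ± 0.0362% of the enolase signal in WT and 0.526 ± 0.0883% in METTL3-KO. GAPDHS, PGAM4 and ENO4 did not pass, and PGK2 and PGAM2 were at 0 counts in all samples.

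Per kilobase of the union of annotated exons, GAPDH was the most abundant of the 10 mRNAs in WT cells (964 ± 42.6 CPM per kb, SD, n = 3) and BPGM the least (7.15 ± 1.02). Between them came ENO1 (339), PKM (286), ALDOA (259), TPI1 (201), PGK1 (177), PGAM1 (29.6), ENO2 (14.2) and ALDOC (13.8 CPM per kb). The samples of PKM and ALDOA overlapped, as did those of TPI1 and PGK1 and those of ENO2 and ALDOC, while the other neighbours in this order were apart. Counts on pseudogene copies were not added to these levels. For TPI1 the copies held 37.1% to 39.0% of the joint counts in WT, so its place in this order is not settled. The union of exons is long where many transcripts are annotated, as for PKM (8.57 kb), and per kilobase of the longest or of the canonical transcript PKM ranked above ENO1. PKM, GAPDH and ENO1 together held 70.8 ± 0.218% of the counts of the 10 genes in WT and 68.8 ± 1.13% in METTL3-KO.

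**Figure D4:**
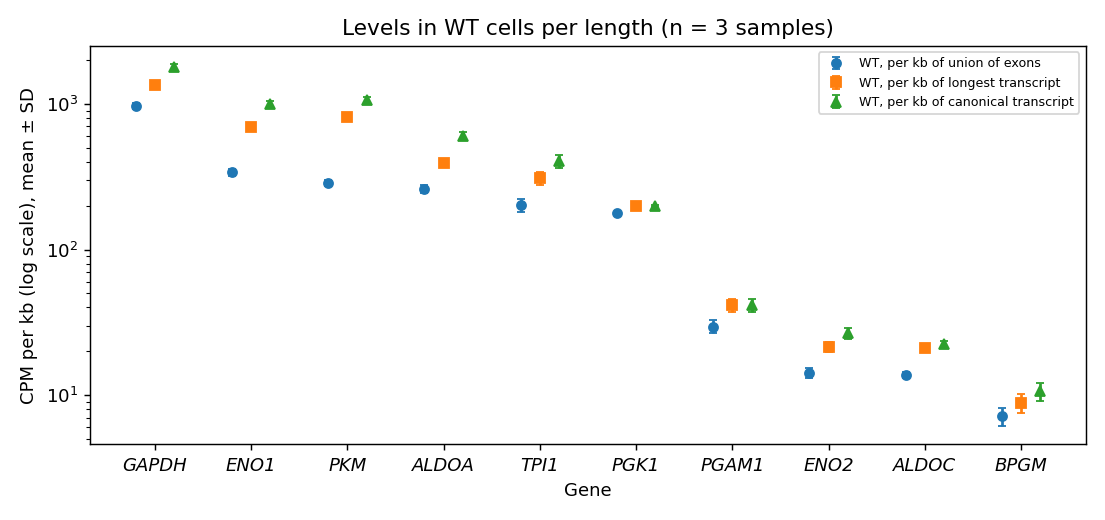
WT level of each enzyme gene in CPM per kb (y axis, log scale, mean and SD of 3 samples) for 3 choices of gene length. GAPDH is highest and BPGM lowest under each, and PKM and ENO1 change places between the union of exons and the other lengths.

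Several of these genes have near-identical processed copies that can take their reads. TPI1P1, a pseudogene row of TPI1, had 9438, 7614 and 6527 counts in WT and 8462, 6592 and 6606 in METTL3-KO, so that copies held 37.1% to 39.5% of the counts of TPI1 and its copies together. The TPI1P1 row had a log2 fold change of -0.20 (SE 0.0721, edgeR adjusted p = 0.0653). With the copies added to the TPI1 row, its log2 fold change was -0.22 (edgeR adjusted p = 0.0472). The 58 GAPDH pseudogene rows held at most 0.497% of the GAPDH sum, the most abundant being GAPDHP1 with 1003 counts over the 6 samples. PGAM4 and the PGAM1 pseudogenes held 6.02% to 8.32% of the PGAM1 sum, and PGAM1 with them had a log2 fold change of -0.24 (edgeR adjusted p = 0.0574). ENO1 shares 126 exonic bases with its antisense gene ENO1-AS1, TPI1 shares 14 with SPSB2 on the other strand, and PGK1 shares 97 with ATP7A on its own strand. Whether strand was used in counting is not given in the sources used here. In htseq-count's union mode, reads in bases shared across strands are left out as ambiguous if strand was ignored, and otherwise assigned by strand. Reads in the bases that PGK1 shares with ATP7A are left out in either case. This holds if the annotation used in counting had the same overlaps.

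What the enzymes share beyond the pathway was read from their positions and sequences. GAPDH, TPI1 and ENO2, all called lower, lie within 389 kb on chromosome 12 (GRCh37, 6643678 to 7032861). The 10 other genes there at or above the BPGM level had a median log2 fold change of 0.14, with 1 called lower and 1 higher. On the whole of chromosome 12 the median was 0.0039 over 462 such genes. The letters GGAC, which the study names as the most common m6A motif, occurred 17 times in the canonical transcript of PKM, 13 times in those of ENO2 and of PGK1, 7 times in PGAM1, 6 times in TPI1, 4 times each in ALDOC, GAPDH and ENO1, and 3 times in ALDOA. BPGM had 0 in 1711 bases, as had 0.572% of the 8746 genes at or above its level, whose transcripts are longer (median 3451 bases). Per kilobase, the count was 7.38 for PKM, 5.67 for ENO2 (2294 bases) and 2.70 for PGK1 (4812 bases), against a median of 3.62 over those genes. These are counts of letters, and methylation was not measured in these files.

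The pathway around these enzymes moved in both directions. In upper glycolysis, which spends ATP, 7 of 9 genes were tested, of which 2 fell and 3 rose. Hexokinase 2 (HK2) fell by 0.69 and glucose-6-phosphate isomerase (GPI) by 0.35 on the log2 scale, and HKDC1, a hexokinase-domain protein, rose by 0.45 (edgeR adjusted p of 0.00234, 0.00213 and 0.0152). Of the 5 enzymes that set fructose-2,6-bisphosphate, the activator of phosphofructokinase, PFKFB3 rose by 0.40 and PFKFB4 fell by 0.47 on the log2 scale (edgeR adjusted p of 0.00916 and 0.0177). Downstream of pyruvate, lactate dehydrogenases LDHB and LDHA fell by 0.45 and 0.37 on the log2 scale (edgeR adjusted p of 0.00103 and 0.0122), and none of the 3 tested monocarboxylate transporters passed. Among 7 genes of branches off lower glycolysis, the serine synthesis enzymes PSAT1 and PSPH fell by 1.39 and 0.55 on the log2 scale (edgeR adjusted p of 9.70e-06 and 0.000435). GPD1, which leads from the triose phosphates to glycerol 3-phosphate, rose by 0.74 (edgeR adjusted p = 0.000286). Of 6 tested genes of gluconeogenesis, only pyruvate carboxylase (PC) passed, with a log2 fold change of -0.35 (edgeR adjusted p = 0.00539).

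**Figure D5:**
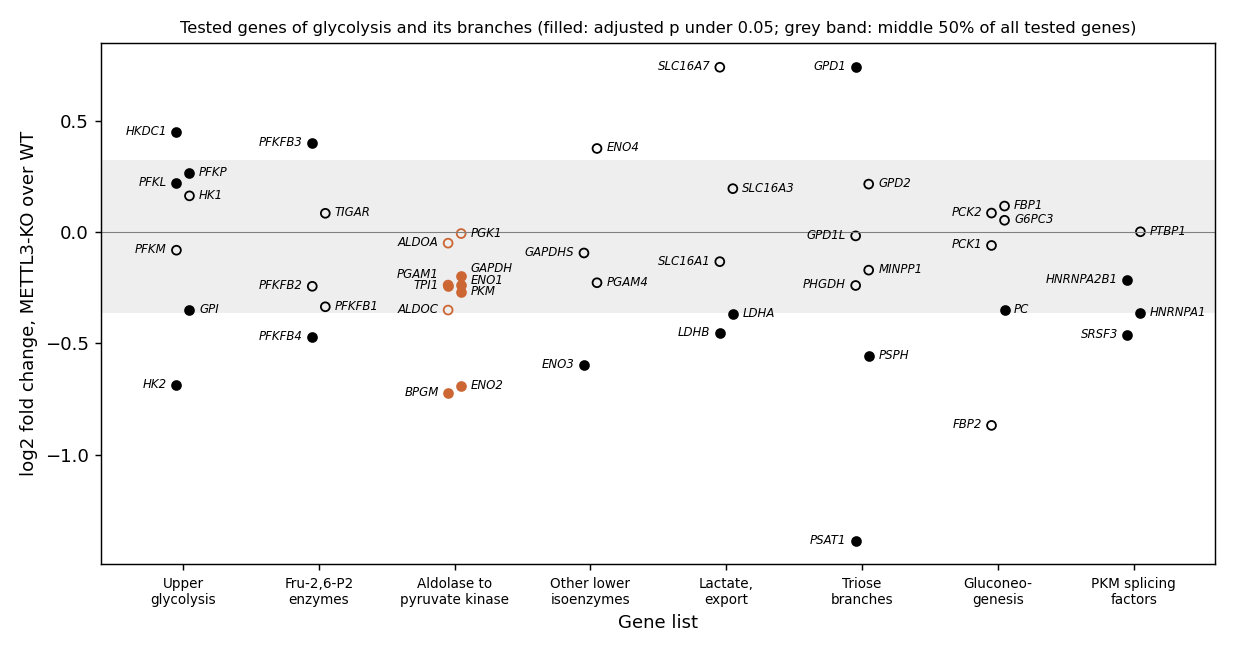
Log2 fold change of METTL3-KO over WT (y axis) for tested genes of glycolysis, its branches and the splicing factors of PKM (columns), filled where the edgeR adjusted p was under 0.05. The 10 enzymes from aldolase to pyruvate kinase lie below 0 here (6 filled), although PGK1 took either sign under other settings, upper glycolysis has filled points on both sides of 0, and the grey band runs between the quartiles of all tested genes.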

How the data were processed

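RNA-seq of 3 WT and 3 METTL3-KO HCT116 samples was analysed. Paired-end reads had been aligned by the authors to hg19 (TopHat2 2.0.11, with transcripts of Ensembl GRCh37) and assigned to genes by htseq-count, whose union mode was used. The deposited tables hold unnormalized counts for each gene symbol. Reads that were ambiguous or not unique had already been left out by that counting. Counters of unassigned reads were kept out of library sizes: no feature made up 6.03% to 9.08%, ambiguous 7.95% to 8.77% and not unique 13.4% to 14.7% of the read pairs.

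A gene was kept if its counts summed to at least 5 in WT or in METTL3-KO (22452 of 56638). METTL3-KO was compared with WT by edgeR's quasi-likelihood test (edgeR 4.0.16, R 4.3.3, TMM, two-sided), with Benjamini-Hochberg adjustment over all tested genes and a threshold of 0.05. The SE is the log2 fold change divided by the square root of F. Shares were compared by exact permutation tests over samples (scipy 1.17.1). Gene lengths and positions came from GENCODE v44lift37 on GRCh37, the build of the files. The fits were tested on simulated counts.

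The 10 genes and the lists were chosen with earlier results of these data known. Of each list, up to 3 genes with an adjusted p under 0.05 and the largest fold changes are named. Pseudogene rows are those named for an enzyme gene followed by P, the most abundant of each gene being named if it had at least 100 counts. Alternatives were other normalizations and filters, DESeq2 1.42.0, a correction for length and GC content, a replicate block and leaving out samples. 1 gene of the lists is not reported here.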

Additional observations from a re-analysis of the deposited data

How the results depend on the processing

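BPGM, ENO2 and METTL3 kept their direction and their call under all 16 alternatives. PKM was called in 14 of the 16, ENO1 in 11, TPI1 and GAPDH in 8 each, ALDOC and PGAM1 in 4 each, ALDOA in 1 and PGK1 in 0. The number of the 10 genes called lower, 6 as reported, ran from 2 to 8 when samples were left out one by one: 2 without WT replicate 1, 3 without WT replicate 2 and 3 without METTL3-KO replicate 1, while 2011 to 3767 genes were called lower over the whole table. The number called higher was 0 throughout, also by DESeq2. PGK1 was above 0 by RLE and DESeq2 (0.0040 each), upper quartile scaling (0.016), filterByExpr (1.3e-05), no filter (0.00096), without replicate 3 of both groups (0.041), and in the range of -0.089 to 0.057 when samples were left out one by one, and it never passed.

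The labels give no shared origin for same-numbered WT and METTL3-KO samples, so the numbers were not taken as pairs. Their deviations from the group means had r of -0.586, -0.390 and -0.784 for replicates 1, 2 and 3. Between samples of unlike numbers r ran from -0.546 to 0.719. The deviations within a group depend on each other, and replicate 3 stood apart in both groups, so these values cannot decide whether the samples were paired. With the replicate block 2 of the 10 genes were called lower, and 1719 genes were called lower and 1810 higher over the whole table, against 2959 and 2986. The replicate block with the length and GC correction called 5 of the 10 lower, and 2879 genes lower over the whole table. Leaving out replicate 3 of both groups gave 4852 genes lower and 4491 higher.

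Levels per kilobase moved with the length used. With the longest transcript they were 1343 for GAPDH, 814 for PKM, 693 for ENO1, 392 for ALDOA, 309 for TPI1, 199.9 for PGK1, 41.7 for PGAM1, 21.6 for ENO2, 21.0 for ALDOC and 8.85 for BPGM. With the canonical transcript, an alternative chosen after seeing the data like the summing of near copies, they were 1798 for GAPDH, 1065 for PKM, 992 for ENO1, 606 for ALDOA, 403 for TPI1, 199.9 for PGK1, 41.7 for PGAM1, 26.6 for ENO2, 22.4 for ALDOC and 10.6 for BPGM. The 3 shares kept their direction under every alternative run. BPGM rests on 242 to 529 counts a sample, and 3 samples a group limit the precision of every value more than depth does for the abundant genes.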
